A study of Mus musculus with 8 samples.

Results

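The mitochondrial ribosomal protein genes were followed across spleen CD4 T cells that differed in KLF2 reporter signal and in stimulation. They were taken by symbol, as the genes named Mrpl or Mrps with a number, without pseudogenes, which gave 78 of the 25124 genes in the table. All 78 passed the filter on low counts that left 19146 genes for testing. The cells were FOXP3-negative CD44hi CD4 T cells of KLF2(GFP) FOXP3(RFP) dual reporter mice, so every group carried both reporters. They were sorted as KLF2+ or KLF2- and kept for 48 h without a stimulus or with 2.5 micrograms/mL anti-CD3 and 1.25 micrograms/mL anti-CD28, antibodies that engage the T cell receptor and its main costimulatory receptor. Each of the 4 groups (unstimulated KLF2+, stimulated KLF2+, unstimulated KLF2-, stimulated KLF2-) had 2 libraries, numbered 1 and 2 in KLF2+ cells and 3 and 4 in KLF2- cells. The labels name neither the age and sex of the mice nor their number, and CD44hi cells are a mixture of activated and memory cells, not 1 cell type.

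Mitochondria carry their own ribosome, which translates the few mRNAs of the mitochondrial genome into core subunits of the respiratory chain and of ATP synthase. Its proteins are encoded in the nucleus, made in the cytosol and imported. Part of them descend from bacterial ribosomal proteins, and the rest are found in mitochondrial ribosomes only. T cells that are activated grow, divide and enlarge their mitochondria, and mitochondrial translation is known to support their proliferation.

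By role, 51 of the 78 genes encoded proteins of the large subunit, which joins amino acids, and 26 encoded proteins of the small subunit, which reads the mRNA. Names and places differ for Mrps30 and Mrps18a, whose proteins sit in the large subunit. Mrps36 was counted in neither, since its protein is known as a component of the alpha-ketoglutarate dehydrogenase complex. By origin, 46 had bacterial homologs and 31 were specific to mitochondria.

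The promoters show what the genes share before their start sites. Of the 78 genes, 69 matched a RefSeq promoter of build GRCm38.p6 (250 bases before to 50 after the start). 5 of these are printed as the 120 bases before the start, with motif matches in capitals. They belong to genes described below for the KLF2+ response and hold NRF1 motifs (Mrpl45, Mrpl17), an ETS motif (Mrps27, Mrps22) or none (Mrpl1). They are examples and do not stand for the set. Mrps6, which had the largest response, and Mrpl48 had no match in the whole window, and Mrpl20 had only the E-box given below. Mrpl45 is at chr11:97315596-97315715 on the plus strand, Mrpl17 at chr7:105811088-105811207 on the minus strand, Mrps27 at chr13:99344666-99344785 on the plus strand, Mrps22 at chr9:98601680-98601799 on the minus strand and Mrpl1 at chr5:96209995-96210114 on the plus strand.
Mrpl45: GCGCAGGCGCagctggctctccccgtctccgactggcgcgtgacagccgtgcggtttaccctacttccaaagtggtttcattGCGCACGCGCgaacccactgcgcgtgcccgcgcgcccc
Mrpl17: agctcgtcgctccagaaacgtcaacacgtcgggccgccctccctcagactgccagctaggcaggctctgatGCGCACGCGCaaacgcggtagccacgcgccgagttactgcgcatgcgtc
Mrps27: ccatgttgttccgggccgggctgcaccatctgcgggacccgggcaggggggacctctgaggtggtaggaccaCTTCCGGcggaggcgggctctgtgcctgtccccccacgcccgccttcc
Mrps22: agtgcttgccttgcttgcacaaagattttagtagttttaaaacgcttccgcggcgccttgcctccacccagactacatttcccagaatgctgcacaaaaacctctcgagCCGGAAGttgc
Mrpl1: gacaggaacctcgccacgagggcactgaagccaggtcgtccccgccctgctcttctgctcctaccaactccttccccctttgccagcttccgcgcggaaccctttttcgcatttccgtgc
Both strands of the 300-base windows were searched for exact letters. The ETS motif CCGGAAG, bound by the GABP factor among others, was in 25 of the 69 promoters, or 36.2%, against 14.2% of all 14573 promoters of tested genes and 21.2% of the 8147 whose gene averaged 10 CPM or more. The NRF1 motif, read as GCGC and TGCGC with any 1 base between them and bound by a regulator of mitochondrial genes, was in 13 (18.8%, against 8.03% and 11.9%). The YY1 motif AAGATGGC was in 12 (17.4%, against 3.77% and 5.44%). The E-box CACGTG, bound by MYC, was in 5 (7.25%, against 9.12% and 10.6%). At least one of the ETS, NRF1 and YY1 motifs was in 42 promoters (60.9%, against 23.2% and 34.1%). None of the 69 promoters held matches of different motifs that overlapped. A match is a description of letters and not a bound site.

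The genes were short and often head to head with another gene. Their median exon length was 1058 bases, against 2649 over all genes tested. For 28 of the 78 (35.9%), a gene on the other strand started within 1000 bases upstream, so that both genes run apart. This held for 11.2% of all genes tested and 15.0% of those averaging 10 CPM or more. Mrpl46 and Mrps11 on chromosome 7 form such a pair of a large-subunit and a small-subunit gene, with starts 42 bases apart. Mrps12, a protein of the decoding centre, starts 147 bases from Sars2, the mitochondrial seryl-tRNA synthetase.

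The libraries differed in depth and in background, and this moved with the groups. Exon reads (M, mega) ranged from 2.99 M and 4.53 M with stimulus in KLF2- cells to 21 M and 36.6 M with stimulus in KLF2+ cells, and the unstimulated libraries had 7.34 M to 17.8 M. A background density was read from 1443 olfactory and vomeronasal receptor genes, which T cells are not thought to express. Over all exons that density amounted to 11.4% and 20.1% of reads for stimulated KLF2- libraries but 1.24% and 0.399% for stimulated KLF2+ libraries. For the unstimulated libraries it was 7.06% and 2.61% (KLF2+) and 7.81% and 7.07% (KLF2-). For the mitochondrial ribosomal protein genes together it amounted to at most 12.4% of their reads, in stimulated KLF2- replicate 4. For single genes the largest share in any library had a median of 10.9% and reached 48.4% (Mrps25). It was over 20% for 11 genes, among them Mrpl1 (24.8%) and Mrpl35 (25.9%). TMM scaling factors ran from 0.626 to 1.54 along the same order. Counts and the main values are therefore given as fitted and in a background-corrected fit, in which the background was subtracted and scaling came from genes of at least 50 CPM. Under that scaling alone the all-gene median was -0.76 in place of -0.25 (log2) for the KLF2+ response, and -1.37 in place of -0.19 for stimulated KLF2+ against KLF2- cells. Whether depth or background accounts for a difference between groups was not tested.

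Klf2, read as a check of the sort, had 303 and 379 CPM in unstimulated KLF2+ cells against 41 and 65 CPM in unstimulated KLF2- cells, a log2 difference of 2.69 ± 0.33 (SE, edgeR adjusted p = 0.00455). With stimulus the gap was smaller, with 93.5 and 139 CPM in KLF2+ and 46.5 and 75.8 CPM in KLF2- cells. The 7 CD4 T cell markers in the table, none at 0 throughout, summed to 4462 and 6643 CPM in unstimulated and 6099 and 6409 CPM in stimulated KLF2+ cells, and to 3315 and 3628, then 2414 and 2320 CPM in KLF2- cells. Between stimulated KLF2+ and KLF2- cells all 7 were called higher as fitted (median log2 1.41), and 3 were higher and 1 lower after correction (median 0.14). Of all genes tested 35.5% were called higher as fitted (61.5% of those averaging 10 CPM or more). After correction 16.8% were higher and 37.6% lower. Myeloid markers (11 genes, none at 0 throughout) summed to 889 and 1614 CPM in unstimulated KLF2+ cells, 51.7 and 89.8 in stimulated KLF2+ cells and 36.8 to 64 in the KLF2- libraries. Most of the sum in unstimulated KLF2+ cells was Lyz2, with 705 and 1376 CPM. Of these 11 genes, 9 were called lower in stimulated than in unstimulated KLF2+ cells, against 17.4% of all genes tested. B cell markers (7 genes, none at 0 throughout) summed to 129 to 231 CPM in the KLF2+ libraries and 52.3 to 108 CPM in the KLF2- libraries. With stimulus 4 of the 7 were called higher in KLF2+ cells (median 2.78), and without stimulus 2 were, against 35.5% and 1.07% of all genes tested. Erythroid and platelet markers (6 genes, none at 0 throughout) summed to 40.8 to 116 CPM in KLF2+ and 19.1 to 32.2 CPM in KLF2- libraries. Of these, 2 were called higher in stimulated KLF2+ than KLF2- cells, where 35.5% of all genes tested were. NK and CD8 markers (6 genes, none at 0 throughout) summed to 51.7 to 91.7 CPM in all libraries. The part of these markers in the results was not tested, and fewer cells of a type and less RNA per cell cannot be told apart in these bulk samples.

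**Figure D1:**
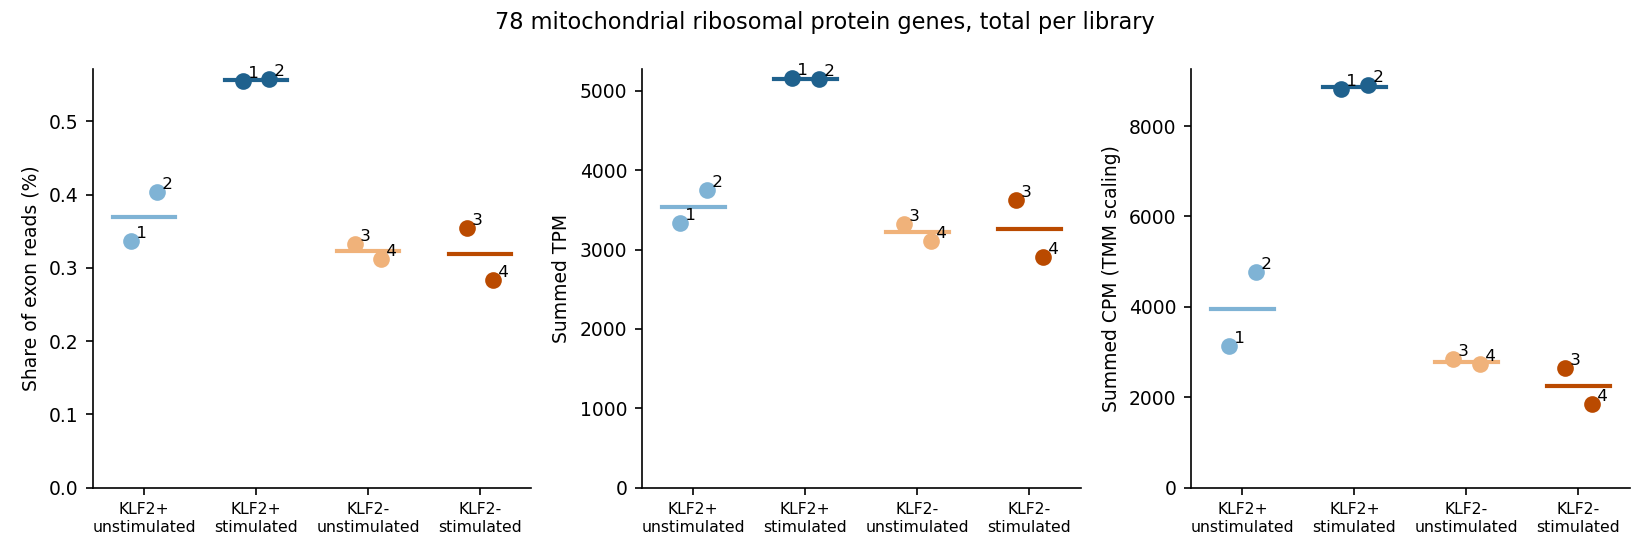
Summed level of the 78 mitochondrial ribosomal protein genes in each library, as percent of exon reads, summed TPM and summed TMM-scaled CPM in 3 panels, with points for libraries, the replicate number beside each and a bar at the group mean. Stimulated KLF2+ libraries stand apart at 0.555% and 0.558% of exon reads, against 0.283% to 0.403% in the other 6.

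As a share of exon reads, the 78 genes together made up 0.337% and 0.403% of the unstimulated KLF2+ libraries and 0.555% and 0.558% of the stimulated ones. In KLF2- cells the share was 0.333% and 0.312% without stimulus and 0.354% and 0.283% with it. The 2 stimulated KLF2+ libraries were above all 6 others, and the KLF2- groups overlapped. By counting error alone each share is known closely (95% Wilson interval 0.555% to 0.56% in stimulated KLF2+ replicate 2 and 0.277% to 0.289% in stimulated KLF2- replicate 4), and PCR duplicates are not covered by it. Summed TPM, which is scaled for length, was 3328 and 3752 in unstimulated and 5162 and 5143 in stimulated KLF2+ cells. It was 3316 and 3113 in unstimulated and 3619 and 2901 in stimulated KLF2- cells. The mean share of exon reads with stimulus was 1.5 times that without in KLF2+ cells and 0.989 times that without in KLF2- cells. In stimulated KLF2+ cells it was 1.74 times that of stimulated KLF2- cells. On the TMM scale the same ratios were 2.24, 0.806 and 3.95, so a large part of the TMM-scaled difference depended on the scaling.

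In KLF2+ cells most of the set was higher with stimulus. As fitted, 72 of the 78 genes rose and none fell (edgeR quasi-likelihood test, adjusted p under 0.05), against 19.7% of all genes tested called higher and 17.4% called lower. All 78 averaged 10 CPM or more, and 33.6% of the genes tested at that level were called higher. The median log2 fold change was 1.14, against -0.25 for all genes tested and 0.35 for those averaging 10 CPM or more, and single values ran from 0.43 to 2.32. In the background-corrected fit 39 rose and none fell, with a median of 0.70, against -0.19 over all genes, of which 13.5% were called higher and 15.1% lower. On TPM, 68 genes had both stimulated libraries above both unstimulated ones and 4 had both below, against 17.6% and 63.2% of all genes. For corrected calls and TPM, here and below, no share was taken over genes averaging 10 CPM or more. As fitted, such genes were called higher more often than all genes. A log2 fold change above 0 was seen for 78 genes (77 after correction), against 43.6% of all genes and 65.8% of those averaging 10 CPM or more. The count called fell to 21 without unstimulated KLF2+ replicate 1 and to 34 without stimulated KLF2+ replicate 2.

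**Figure D2:**
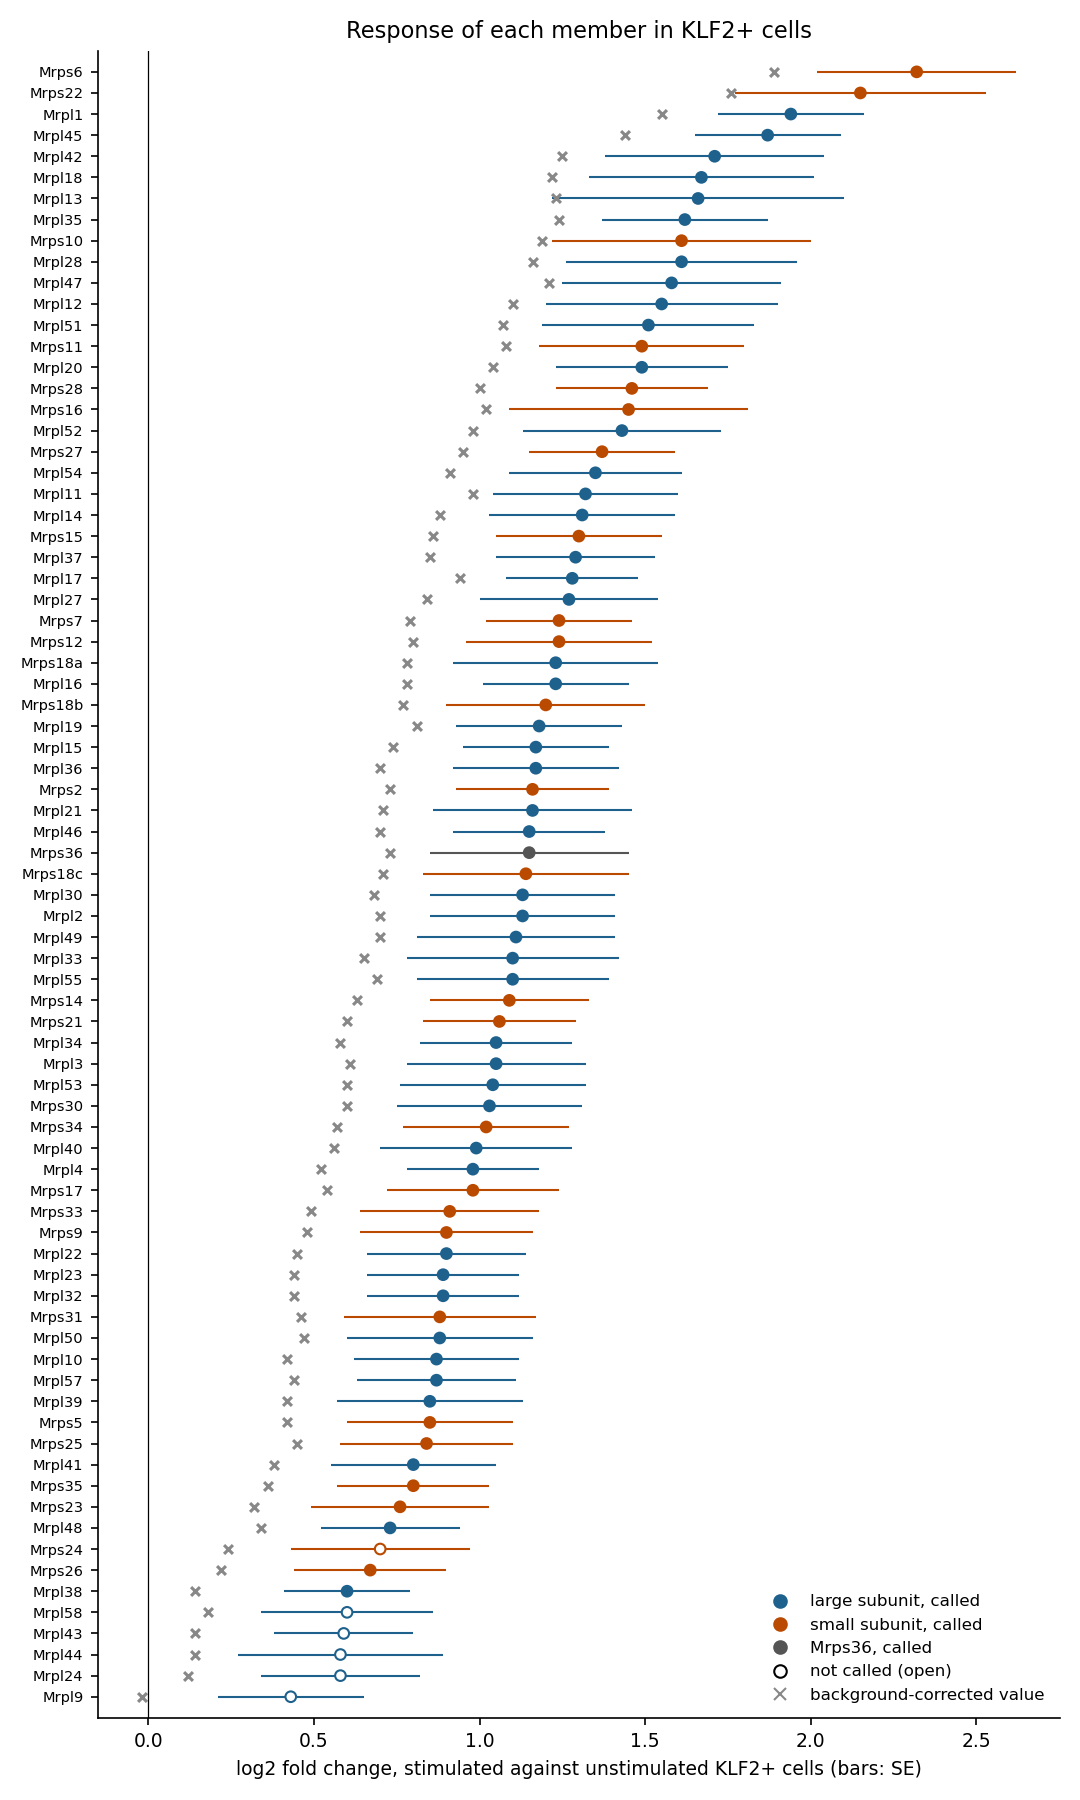
Log2 fold change of each mitochondrial ribosomal protein gene, stimulated against unstimulated KLF2+ cells, as points with standard errors, coloured by subunit, open where not called, with crosses for background-corrected values. The KLF2+ response was above 0 for all 78 genes as fitted and for 77 after background correction.

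Mrpl1, the protein of the mobile L1 stalk through which used tRNAs leave, had the smallest p. Its TPM was 11.5 and 9.57 in unstimulated and 26.7 and 23.6 in stimulated KLF2+ cells, and 10.8, 14.1, 15.1 and 14.7 in the KLF2- libraries (unstimulated 3 and 4, then stimulated 3 and 4). The stimulated KLF2+ libraries were above all others. The log2 fold change of the KLF2+ response was 1.94 ± 0.22 (SE, edgeR adjusted p = 0.00073) and 1.55 in the background-corrected fit (adjusted p = 0.004).

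Mrps6, a small-subunit protein with a bacterial homolog, had the largest response. Its TPM was 38.4 and 45.2 in unstimulated and 132 and 136 in stimulated KLF2+ cells, a log2 fold change of 2.32 ± 0.30 (edgeR adjusted p = 0.00116) and 1.89 after background correction. In KLF2- cells it was already 82.7 and 79.4 without stimulus and 106 and 75.2 with it, so the unstimulated KLF2+ libraries were the lowest of the 8. Mrps6 shares exons with Slc5a3, a myo-inositol transporter gene on the same strand, and how the authors split shared reads is not stated in the labels or headers. Slc5a3 itself had a log2 fold change of 0.05 ± 0.23 in the KLF2+ response (edgeR adjusted p = 0.874). It was lower in stimulated KLF2+ than in stimulated KLF2- cells (-1.27 ± 0.23, edgeR adjusted p = 0.00108). Without stimulus Slc5a3 had 42.7 and 29.2 CPM in KLF2+ and 57.6 and 59.9 CPM in KLF2- cells, the same order as Mrps6. What the shared exons contribute to the Mrps6 values was not tested.

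Mrpl45, which holds the large subunit at the inner membrane and has an NRF1 motif pair in the promoter printed above, followed the same course. Its TPM was 23 and 20.5, then 47.9 and 51.7 in KLF2+ cells, and 38.4 and 32.9, then 52.7 and 46.2 in KLF2- cells. The stimulated libraries of both populations were alike in range, and the unstimulated KLF2+ libraries were lowest. The log2 fold change of the KLF2+ response was 1.87 ± 0.22 (edgeR adjusted p = 0.000857; 1.44 after correction). Mrps22, a mitochondrion-specific protein of the small subunit, went from 13.7 and 16.2 to 44.9 and 40.3 TPM in KLF2+ cells and had 13.8, 12.8, 19.7 and 9.08 in KLF2- cells. Its log2 fold change was 2.15 ± 0.38 (edgeR adjusted p = 0.00433; 1.76 after correction), and background density reached 40.2% of its reads in 1 library.

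Next by p, though not by size, were Mrpl17 (log2 fold change 1.28 ± 0.20), Mrpl35 (1.62 ± 0.25) and Mrpl20 (1.49 ± 0.26) in the large subunit. In the small subunit they were Mrps28 (1.46 ± 0.23) and Mrps27 (1.37 ± 0.22; edgeR adjusted p 0.0024 to 0.00386 for these 5, all called after correction too). Mrpl1, Mrpl45, Mrps6, Mrps22, Mrpl35, Mrpl20, Mrps28 and Mrps27 were called in all 16 alternative settings, and Mrpl17 in 14, leaving aside background correction combined with a left-out library. TPM of Mrpl17 was 7.88, 7.38, 11.7 and 11.6 in KLF2+ cells and 10.4, 10.5, 17.1 and 23.4 in KLF2- cells, so the stimulated KLF2- libraries were highest there.

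3 members form the stalk that recruits translation factors. Mrpl12, which forms its mobile arms, had a log2 fold change of 1.55 ± 0.35 (edgeR adjusted p = 0.0112), and TPM of 66.5 and 80.7 against 134 and 142. Mrpl11, at the base, had 1.32 ± 0.28 (edgeR adjusted p = 0.00866), and Mrpl10, which anchors the arms, 0.87 ± 0.25 (edgeR adjusted p = 0.0249). Mrpl12 and Mrpl11 were called after background correction and Mrpl10 was not (0.42, adjusted p = 0.0826). The decoding-centre protein Mrps12 rose by 1.24 ± 0.28 on the log2 scale (edgeR adjusted p = 0.0102) and was called after correction (0.80, adjusted p = 0.0317). The 3 paralogs of the S18 family, of which Mrps18a sits in the large subunit and Mrps18b and Mrps18c in the small, lay close together at 1.23, 1.20 and 1.14. Mrps30 had 1.03 and Mrps36 had 1.15, and these 5 genes, called as fitted, were not called after correction (adjusted p 0.0507 to 0.0681).

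The smallest called values were those of Mrpl38 (0.60 ± 0.19), Mrps26 (0.67 ± 0.23), Mrpl48 (0.73 ± 0.21) and Mrps23 (0.76 ± 0.27), all mitochondrion-specific, with corrected values of 0.14 to 0.34 that were not called. Mrpl38 had TPM of 44.6 and 40.6 without and 40.5 and 40.2 with stimulus in KLF2+ cells, so on that scale its libraries did not rise. The 6 genes not called were Mrpl43 (0.59), Mrps24 (0.70), Mrpl24 (0.58), Mrpl58 (0.60), Mrpl9 (0.43) and Mrpl44 (0.58). Mrpl58 is a hydrolase that frees stalled ribosomes, and Mrpl44 resembles an RNase III. Of the 78 genes, 26 share exon bases with another gene, among them Mrps6, Mrpl48, Mrpl9, Mrpl43, Mrpl58, Mrps26, Mrps27 and Mrps7. Of the 52 that share none, 50 rose, and 29 after correction.

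The members were also read by subunit and origin. In the large subunit 46 of 51 genes rose (median 1.13; 25 genes and 0.70 after correction) and in the small subunit 25 of 26 (median 1.12; 14 genes and 0.67). Genes with bacterial homologs gave 43 of 46 called and a median of 1.17 (29 genes and 0.74 after correction), and mitochondrion-specific genes 28 of 31 and 0.99 (10 genes and 0.56). No test of the difference between these groups was made.

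In KLF2- cells none of the 78 genes passed the test of stimulation (edgeR adjusted p; 0 also by DESeq2), and none of the 19146 genes tested was called (0%). At an unadjusted p under 0.05, 1 member was higher and 10 were lower, while 2802 of all genes (14.6%) passed. The median was -0.32 as fitted, with 5 of 78 values positive (52.6% of all genes, 28.2% of those averaging 10 CPM or more), and 0.03 after background correction. For genes averaging 10 CPM or more the median as fitted was -0.29, close to that of the members. The smallest p values were those of Mrpl43 (-0.77 ± 0.22, edgeR adjusted p = 0.268), Mrpl9 (-0.73 ± 0.23, edgeR adjusted p = 0.273) and Mrpl17 (0.54 ± 0.20, edgeR adjusted p = 0.285). After correction they were -0.41, -0.34 and 1.00, also not called. Mrpl43 TPM was 40.1 and 35 without and 27.6 and 30.1 with stimulus. On TPM, 17 genes had both stimulated libraries above the unstimulated ones and 11 below, against 48.2% and 10.4% of all genes, and 50 overlapped. The stimulated KLF2- libraries were the shallowest and differed from each other, with replicate 3 above replicate 4 in 59 of 78 genes on TPM.

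The difference between the responses, KLF2+ minus KLF2-, was higher for 72 of 78 genes and lower for none, against 20.3% of all genes called higher and 15.5% lower, and 36.3% higher among those averaging 10 CPM or more. The median was 1.44 (0.71 for genes averaging 10 CPM or more) as fitted and 0.66 after background correction, where 5 genes were called higher (3.83% of all genes, and 7.87% lower): Mrpl1, Mrps6, Mrpl45, Mrpl54 and Mrps7. Mrps6 had 2.51 ± 0.41 (edgeR adjusted p = 0.0119; 1.67 after correction) and Mrpl1 2.07 ± 0.31 (edgeR adjusted p = 0.00941; 1.37 after correction). The count changed strongly when single libraries were left out, in fits that leave 1 library in a group. The genes with the smallest p were Mrpl1, Mrps6, Mrpl45, Mrpl54, Mrps28 and Mrps7. Their log2 differences stayed above 0 in all 15 alternative settings, from 0.61 (Mrps7) to 3.01 (Mrps6). Background correction combined with a left-out library is left aside there. The genes not called were Mrpl48, Mrpl17, Mrpl41, Mrps33, Mrpl40 and Mrpl33.

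With stimulus, all 78 genes were called higher in KLF2+ than in KLF2- cells as fitted, though Mrpl17 was called lower (-0.53) with scaling from 50 CPM genes. Of all genes tested 35.5% were called higher and 39.7% lower, and of those averaging 10 CPM or more 61.5% were higher. The members had a median of 1.97 (0.66 to 2.93), against 0.91 for genes averaging 10 CPM or more. After background correction 62 were higher and none lower, with a median of 0.90, against 16.8% of genes called higher and 37.6% lower. On TPM 70 genes had both KLF2+ libraries above both KLF2- ones and 3 below, with 5 overlapping, against 14.1% and 74.9% of all genes. Mrps28 had the smallest p, with 65.4 and 65.9 TPM against 30.9 and 26.5 and a log2 difference of 2.60 ± 0.25 (edgeR adjusted p = 0.000229; 1.49 after correction). Mrpl34 followed with 78.5 and 69.1 TPM against 37 and 29.3 (2.55 ± 0.25, edgeR adjusted p = 0.000229; 1.43 after correction). Next by p, Mrps7, a head protein of the small subunit, Mrpl1 and Mrps2 differed by 2.23, 2.19 and 2.19 (1.06, 1.20 and 1.20 after correction). Mrpl54 had 100 and 108 TPM against 43.2 and 52.2 (2.57 ± 0.28, edgeR adjusted p = 0.000248; 1.37 after correction). Mrpl45, with overlapping TPM ranges, had 1.43 as fitted and 0.25 after correction (not called). For Mrpl17 the values turned, from 0.66 (called higher) to -0.44 after correction (adjusted p = 0.071).

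Without stimulus no member passed the test between populations. None of the 78 genes was called (edgeR adjusted p; 5 by DESeq2), where 1.07% of all genes were called higher and 1.25% lower. At an unadjusted p under 0.05, 30 were higher in KLF2+ cells and none lower, against 19.2% of all genes in either direction. The median was 0.53, against 0.19 for genes averaging 10 CPM or more, and 0.21 after background correction. On TPM 34 genes had both KLF2+ libraries above and 11 below, against 11.2% and 48.6% of all genes. Mrpl33 came closest, with 134 and 164 TPM in KLF2+ against 70.4 and 74.1 in KLF2- cells (1.46 ± 0.33, edgeR adjusted p = 0.0579). Mrpl34 (0.91 ± 0.24, edgeR adjusted p = 0.0956) and Mrpl38 (0.68 ± 0.19, edgeR adjusted p = 0.11) came next. After correction these 3 had 1.11, 0.60 and 0.38, also not called. Mrps6 and Mrpl45 went the other way, with both KLF2+ libraries below both KLF2- ones: log2 differences were -0.55 ± 0.29 (edgeR adjusted p = 0.32) and -0.34 ± 0.22 (edgeR adjusted p = 0.398). After correction Mrpl45 was the 1 member called lower (-0.67, adjusted p = 0.0465; 0.988% of all genes were called higher and 3.03% lower) and Mrps6 was not (-0.91, adjusted p = 0.0501). The number called rose when unstimulated KLF2+ replicate 1 was left out, which lay below replicate 2 in all 78 genes on CPM.

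**Figure D3:**
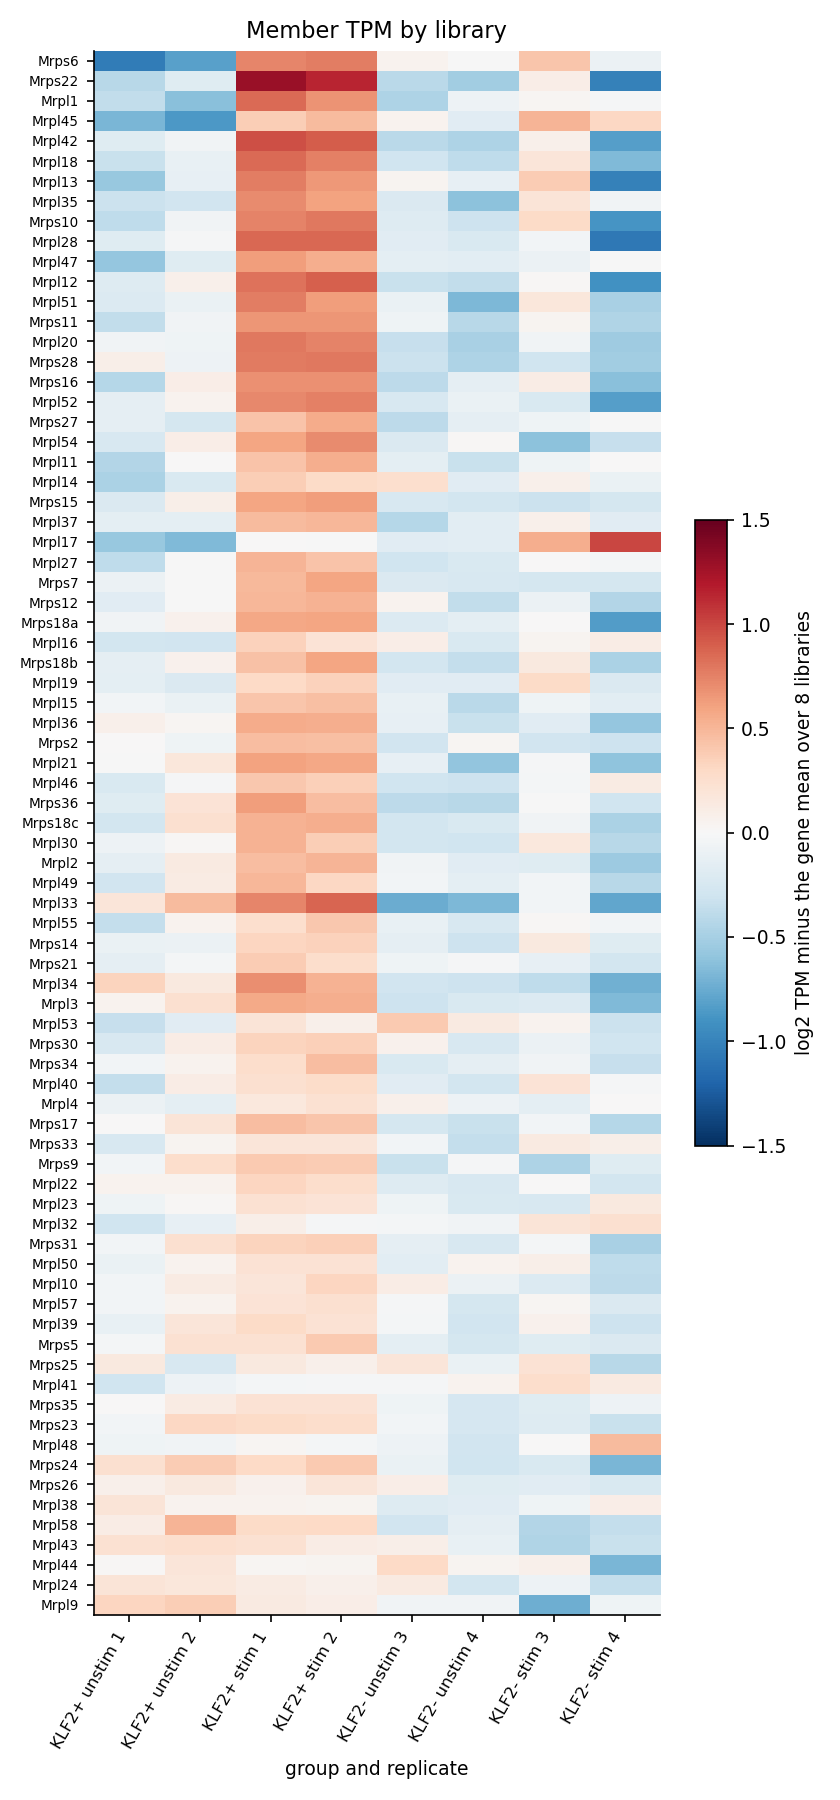
TPM of each mitochondrial ribosomal protein gene in each of the 8 libraries, relative to its mean over the libraries on a log2 scale. The stimulated KLF2+ columns are highest for most genes, and Mrps6 and Mrpl45 are among the genes lowest in the unstimulated KLF2+ columns.

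Levels per length had a like order in all libraries. Ranks of TPM over the 78 genes correlated between any pair of libraries with Spearman's rho of 0.81 to 0.99, as a description across genes that share libraries and lengths. Mrpl33 (125 TPM), Mrpl18 (118) and Mrps21 (105) had the highest medians over the 8 libraries, and Mrpl19 (9.56), Mrps25 (10.9) and Mrpl17 (11.1) the lowest. By group mean Mrpl33 was highest in unstimulated KLF2+ cells (149 TPM) and Mrpl18 in the other 3 groups (236 TPM in stimulated KLF2+, 107 in unstimulated KLF2- and 120 in stimulated KLF2- cells).

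Other genes of mitochondrial translation were read in the KLF2+ response from gene lists. Of the assembly factors, 8 of 24 rose and 1 fell (2 and 3 after background correction), of the translation factors 6 of 13 (4 after), of the mitochondrial tRNA synthetases 7 of 17 (3 after) and of the genes of mitochondrial transcription and RNA handling 7 of 15 (2 after). The 5 mitoribosome proteins with other names all rose (3 after). Beside these stand 19.7% of all genes called higher as fitted, 33.6% of those averaging 10 CPM or more, and 13.5% after correction. Gfm1, the elongation factor that moves the ribosome along, had 43.6 and 46.7 CPM without and 124 and 116 CPM with stimulus (1.41 ± 0.18, edgeR adjusted p = 0.00123; 0.97 after correction). Slirp, which binds mitochondrial mRNAs, had 15 and 21.9 against 73.4 and 69.5 CPM (1.95 ± 0.26, edgeR adjusted p = 0.00131; 1.51 after correction). Mrrf, the recycling factor (1.57), Tars2, the synthetase for threonine (1.27), Fastkd2 (1.09), Malsu1 (1.36), Elac2 (0.95), Gadd45gip1 (1.07) and Chchd1 (1.27) were among the other called genes with the smallest p of their lists, with 0.53 to 1.29 after correction and all still called. Ddx28, an assembly helicase, was the 1 gene of these 5 lists called as fitted between unstimulated KLF2+ and KLF2- cells, higher in KLF2+ (1.70 ± 0.25, edgeR adjusted p = 0.00908; 1.46 after correction).

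**Figure D4:**
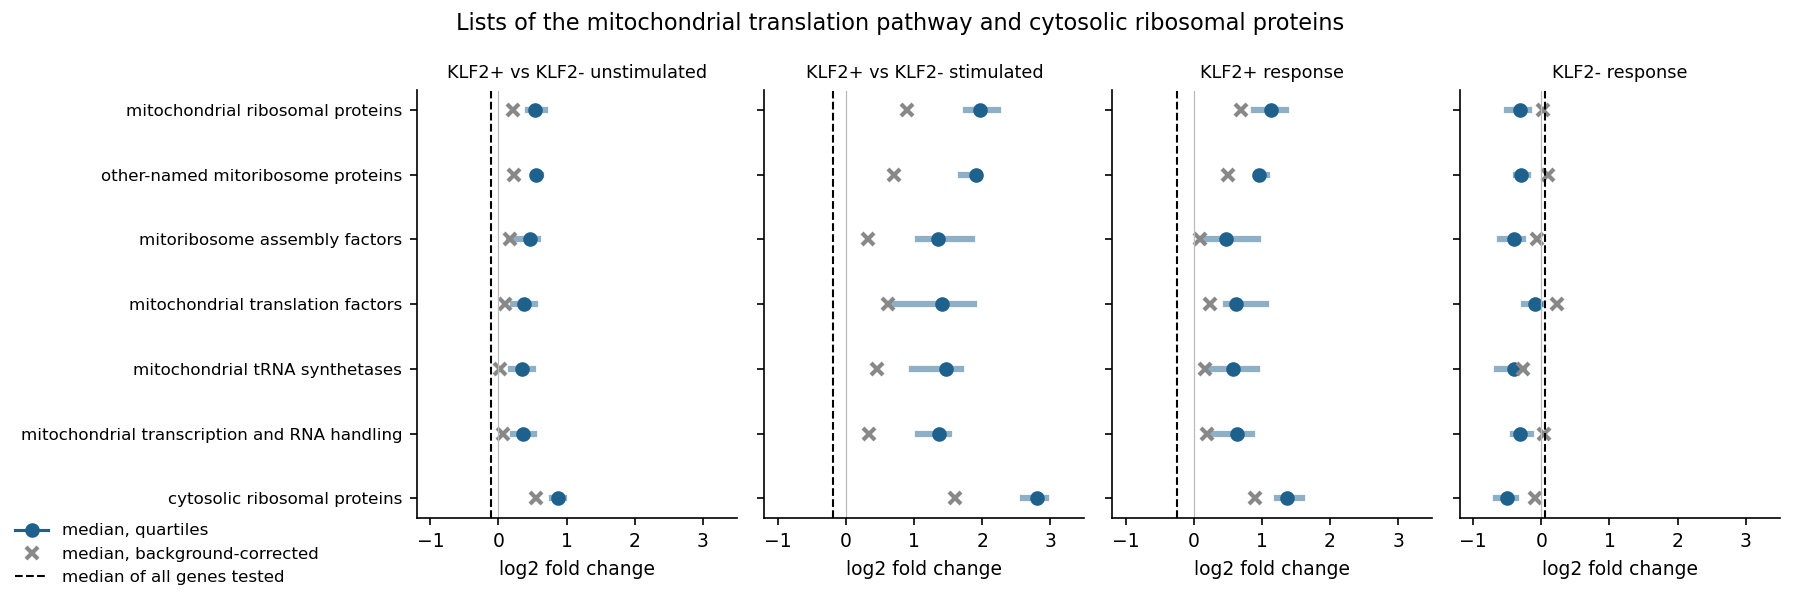
Median log2 fold change of each list (points, with bars for quartiles), its background-corrected median (crosses) and the median of all genes tested (dashed line), with 1 panel per comparison. Cytosolic and mitochondrial ribosomal proteins have the highest medians in the KLF2+ response, at 1.37 and 1.14.

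Cytosolic ribosomal proteins, of which 82 of 84 rose with a median of 1.37 (74 rose and 2 fell after correction), were read beside the mitochondrial set. They have many near-identical pseudogenes, so their counts are uncertain where reads were shared, and 3 of the 78 mitochondrial genes have a named pseudogene. A summed TPM was taken by name pattern alone, so Rps6k kinase genes and some paralogs left out of the 84 were included. This sum was 25607 and 25597 without and 39567 and 37554 with stimulus in KLF2+ cells, and 18847, 17203, 17529 and 12985 in KLF2- cells. Of 10 regulators, 3 rose and 1 fell (1 and 1 after correction), near the shares of genes averaging 10 CPM or more called as fitted and of all genes called after correction. Gabpb1, a GABP subunit, rose by 1.23 ± 0.24 (edgeR adjusted p = 0.00627; 0.79 after correction). Ppargc1a, a coactivator of mitochondrial genes, was lower by 2 on the log2 scale (edgeR adjusted p = 0.0134, and -2.58 after correction). Its CPM was 23.9 and 12.7 without and 6.27 and 2.97 with stimulus in KLF2+ cells. In KLF2- cells it was 26.5 and 33.7 without and 34 and 71 with stimulus. Ppargc1a was thus highest in the library with the largest background share and lowest in the one with the smallest. Whether background accounts for its difference was not tested. Myc had 115 and 111 against 402 and 430 CPM in KLF2+ cells (1.87 ± 0.63, edgeR adjusted p = 0.0428), and was not called after correction (edgeR adjusted p = 0.165). In KLF2- cells Myc had 69.8 and 48.9 CPM without and 89 and 11.8 CPM with stimulus, so the stimulated KLF2- libraries differed from each other. Nrf1 had 0.32 in the KLF2+ response (edgeR adjusted p = 0.23).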

How the data were processed

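RNA from 8 libraries of sorted mouse CD4 T cells was analysed. Per the file headers, the deposited counts are estimated counts per gene made by the authors with HOMER over exons (mm10, multiples of 0.5, no depth adjustment), and a second deposited table holds TPM. Per the submitters' processing notes, STAR 2.7.9, HOMER 4.11, SAMtools and DESeq2 were used. Strand handling and read filters are not stated in the labels or headers. For the fits the estimated counts were rounded to the nearest whole number.

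Genes were filtered by filterByExpr (19146 kept), scaled by TMM and fitted over 8 libraries with edgeR 4.0.16 (R 4.3.3, quasi-likelihood F test, 4 residual degrees of freedom), with Benjamini-Hochberg adjustment over those genes. A call is an adjusted p under 0.05. SE is the absolute log2 fold change over the square root of F. In the background-corrected fit (15290 genes), the read density of 1443 receptor genes (1658 kb of exons) times exon length was subtracted, with scaling from the 5241 genes of at least 50 CPM. No label states that replicates came from different animals or cultures, and the p-values cover only the spread among these libraries, possibly a technical one. Alternatives were DESeq2 1.42.0, limma 3.58.1 on log2(TPM + 1) and log2(TPM + 0.1), no filter, other scaling, fits of only the 4 libraries compared, a replicate block and leaving out each library. The script was tested on simulated data.

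The genes and lists were chosen with earlier results of these data known. Named were, in the KLF2+ response, the 8 called genes with the smallest p, the 4 largest and 4 smallest called values, up to 6 by p in the other comparisons (3 where none was called), the 3 highest and 3 lowest in TPM, and a fixed list of stalk, anchor and special-role genes. In each pathway list, the 2 called genes with the smallest p were named, except 1 gene that is not reported here. Slc5a3, Sars2, Mrpl46, Mrps11, Nrf1 and Myc were named outside that rule, after their values were seen.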

Additional observations from a re-analysis of the deposited data

Results flagged for a closer look

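The response of the mitochondrial ribosomal protein genes to stimulation differed between KLF2+ and KLF2- cells for 72 of 78 genes, by the test of the difference itself (edgeR, adjusted p under 0.05), all higher in KLF2+ cells. Of all genes 20.3% were called higher, and 36.3% of those averaging 10 CPM or more. Leaving out unstimulated KLF2- replicate 4 gave 0 genes, and leaving out its replicate 3 gave 1. The genes with the smallest p were Mrpl1 (2.07), Mrps6 (2.51), Mrpl45 (1.77), Mrpl54 (2.13), Mrps28 (1.83) and Mrps7 (1.66), each a log2 difference, higher in KLF2+ cells. After background correction 5 genes were called higher, where 3.83% of all genes were called higher and 7.87% lower. Mrps28 was not among the 5.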

How the results depend on the processing

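Members called in the KLF2+ response (72) were 39 after background correction, 44 with the 50 CPM scaling and no subtraction, 32 and 37 with limma on log2(TPM + 1) and log2(TPM + 0.1), and 21 to 76 over left-out libraries (3 to 54 after background correction, with 27, 9, 18 and 16 without unstimulated KLF2+ replicate 2, stimulated KLF2+ replicate 1 and unstimulated KLF2- replicates 3 and 4). For stimulated KLF2+ against KLF2- cells (78) left-out libraries gave 77 to 78 (32 to 61 after correction, with 47 and 43 without unstimulated and stimulated KLF2- replicate 4). Without stimulus (0) the count was 5 with DESeq2, 1 without a filter, 1 after correction, 1 with only the 4 libraries, 3 and 3 with limma, and 0 to 25 over left-out libraries (0 to 3 after correction). For the difference in response (72) it was 5 after correction, 12 with the scaling, 17 and 19 with limma, and 0 to 78 over left-out libraries (0 to 35 after correction). In KLF2- cells (0) it was 1 with a replicate block and 0 to 1 over left-out libraries after correction. The median there changed sign: 0.03 after correction, 0.08 with the scaling, 0.01 and 0.01 with limma, and 0.03 to 0.16 in the left-out fits after correction that turned, with 0.05 without either unstimulated KLF2+ library. Mrpl38 in the KLF2+ response turned to -0.08 with both limma settings, and Mrpl9 in the KLF2- response reached 0 after correction without stimulated KLF2- replicate 3. The cause was not tested. With the replicate block 77 and 76 members were called for the KLF2+ response and the difference. Correlations of same-numbered deviations were 0.556 in KLF2+ and 0.087 in KLF2- cells. In KLF2+ cells replicate 1 was also the shallower library in both groups. The correlations therefore cannot settle whether the numbers are pairs, and the main fit took none. The stimulated KLF2- libraries limit the depth. Apart from background correction with all libraries, shares of all genes called are not given for the alternative settings. Those counts therefore cannot tell a change in the members from a change in genes at large.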
